A study of Mus musculus with 12 samples.

Results

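Skeletal muscle genes were followed in RNA from mouse rib chondrocytes, the cartilage-forming cells of the rib. The group consisted of 34 genes picked by symbol from the deposited expression table, and 34 of 34 were found among its 17922 genes. They code for 6 myosin heavy chains, 5 myosin light chains, 4 actins and actinins, 7 troponins, 3 scaffold proteins, 5 proteins of energy supply and calcium handling, and 4 transcription factors of muscle precursors. Of these, 30 had enough counts to be tested at the embryonic stage E18.5 and between the control groups, and 25 at postnatal day 5 (P5). Myh2, Myh4, Myl2 and Myl3 were too low to be tested in any comparison, and Myh1, Myh7, Tnnc2, Ckm and Casq2 were also too low to be tested at P5.

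The study deleted enzymes of energy metabolism in cartilage with Col2-Cre, a recombinase made under a collagen II promoter and so active in chondrocytes and their precursors. One set, at P5, compared 3 LDH knockout samples (Col2-Cre with floxed Ldha on both alleles and 1 intact copy of Ldhb) with 3 controls, and the other set, at E18.5, compared 3 Acly knockout samples (Col2-Cre with floxed Acly on both alleles) with 3 controls. Controls were littermates of the knockouts, their genotype beyond the word control is not given in the sources used here, and the background of all mice was mixed with C57BL/6 dominant. Cells were freed from rib cartilage with collagenase, plated densely and kept in culture overnight, and polyadenylated RNA was sequenced. The labels do not say whether each sample came from 1 animal or a pool, so the p-values measure the spread between these samples only.

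A muscle fibre contracts when myosin heavy and light chains pull on actin filaments, and troponin bound to those filaments switches the pull on when calcium is released. Fibres form by fusion of precursors: Pax7 and Myf5 mark satellite cells and early myoblasts, Myod1 commits cells to the lineage, and Myog drives their differentiation, after which the contractile genes are switched on. Developing fibres use the embryonic heavy chain Myh3 and the perinatal heavy chain Myh8. In fast fibres these give way after birth to the fast chains Myh2, Myh1 and Myh4, and Myh7 is the chain of slow fibres. Intercostal muscle lies between the ribs, next to the cartilage from which these cells were taken.

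The libraries were of even depth, with 26362407 to 28154143 expected counts per sample, so that 3 counts equal 0.107 to 0.114 CPM. Levels are given in CPM, which are expected counts relative to the library total after TMM scaling over the 12 samples, or, where genes are set against each other, in TPM, which also accounts for transcript length. The targeted genes were low in their knockouts: Ldha was at 10.3% of its control mean and Acly at 37.4%, whereas Ldhb was not lower in LDH knockouts (15.9 ± 1.16 CPM against 12.4 ± 0.604, SD, n = 3 each). The 10 chondrocyte markers were detected in each group and summed to 11883 ± 897 CPM in controls and 24086 ± 5167 CPM in knockouts of the LDH set, and to 8984 ± 409 and 15641 ± 1158 CPM in those of the Acly set. Cardiac markers were nearly absent, at 0.781 CPM or less for the sum of 9 genes in 11 libraries and 3.53 CPM in Acly knockout 1, and Nppb, Ryr2 or both were at 0 in each group. These were bulk samples, so fewer cells of a type and less RNA per cell cannot be told apart in any value below.

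The stretches before the start sites of 4 members that were in the promoter reference are shown. Myog and Acta1 were among the members with the highest levels at E18.5. The share of Myh3 in the sum of Myh3 and Myh8 did not overlap between the E18.5 groups. The stretches come from RefSeq and its GRCm38.p6 assembly, which is not the build named in the submitters' processing notes. Each runs 5′ to 3′ over the 250 bases before the start. Capitals mark E-boxes (CANNTG, the letters bound by Myod1 and Myog) and TATAAA, read on either strand. The windows lie at chr1:134289754-134290003 (plus strand) for Myog, chr8:123894776-123895025 (minus) for Acta1, chr11:67078050-67078299 (plus) for Myh3 and chr11:67276874-67277123 (plus) for Myh8.
Myog: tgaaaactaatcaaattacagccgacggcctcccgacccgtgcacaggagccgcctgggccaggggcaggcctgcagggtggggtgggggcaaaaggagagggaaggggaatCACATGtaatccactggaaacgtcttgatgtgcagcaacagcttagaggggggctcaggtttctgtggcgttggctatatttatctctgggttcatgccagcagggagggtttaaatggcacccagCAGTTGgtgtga
Acta1: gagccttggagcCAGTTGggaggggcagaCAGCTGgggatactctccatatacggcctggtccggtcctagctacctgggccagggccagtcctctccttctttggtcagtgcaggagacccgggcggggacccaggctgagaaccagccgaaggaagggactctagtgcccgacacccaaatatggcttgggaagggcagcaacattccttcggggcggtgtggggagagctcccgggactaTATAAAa
Myh3: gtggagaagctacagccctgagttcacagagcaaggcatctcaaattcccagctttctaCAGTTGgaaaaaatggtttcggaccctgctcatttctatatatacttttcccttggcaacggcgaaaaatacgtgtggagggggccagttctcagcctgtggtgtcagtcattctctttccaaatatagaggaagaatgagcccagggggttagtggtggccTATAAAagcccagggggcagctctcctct
Myh8: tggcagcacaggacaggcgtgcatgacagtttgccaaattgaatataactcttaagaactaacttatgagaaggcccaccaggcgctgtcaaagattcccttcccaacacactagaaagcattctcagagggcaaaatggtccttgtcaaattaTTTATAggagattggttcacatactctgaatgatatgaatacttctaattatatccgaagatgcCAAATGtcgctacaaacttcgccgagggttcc
Myog and Acta1 each held 2 E-boxes, Acta1 also held 1 TATAAA, and Myh3 and Myh8 held 1 E-box and 1 TATAAA each. Promoters of 29 of the 34 members were in the reference, in 35 windows, and Actn3, Tnnt3, Tnni2, Neb and Myod1 were missing from it. These windows also take in bases after the start, which the stretches above leave out, and the shares below count matches on both sides of the start. An E-box was present in 29 of these 35 windows (82.9%), against 72.3% of all 32851 promoter windows with the same bounds. Some genes have more than 1 window, and overlapping windows count the same match again. Counted by gene, 23 of the 29 members had an E-box. TATAAA was present in 31.4% of the members' windows and 13.6% of all windows. A loose pattern for the site of the muscle factor MEF2, CTA and TAG with 4 bases of any kind between them, was present in 8.57% and 3.69%. It can count stretches that are not MEF2 sites and miss sites with other ends. Both strands were searched, and in the 250 bases before the start no matches overlapped each other. These are counts of letters and no test was made.

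Levels were low in the 6 samples at P5 and high in the 6 at E18.5. The 34 genes summed to 80.1, 47.3 and 53.0 CPM in the LDH controls and to 49.7, 74.0 and 83.4 CPM in the LDH knockouts. In the Acly controls they summed to 661, 505 and 584 CPM, and in the Acly knockouts to 453, 271 and 568 CPM. The lowest E18.5 sample, Acly knockout 2, was thus above the highest P5 sample, LDH knockout 3. Between 30 and 33 of the 34 genes had at least some signal in any 1 library.

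**Figure D1:**
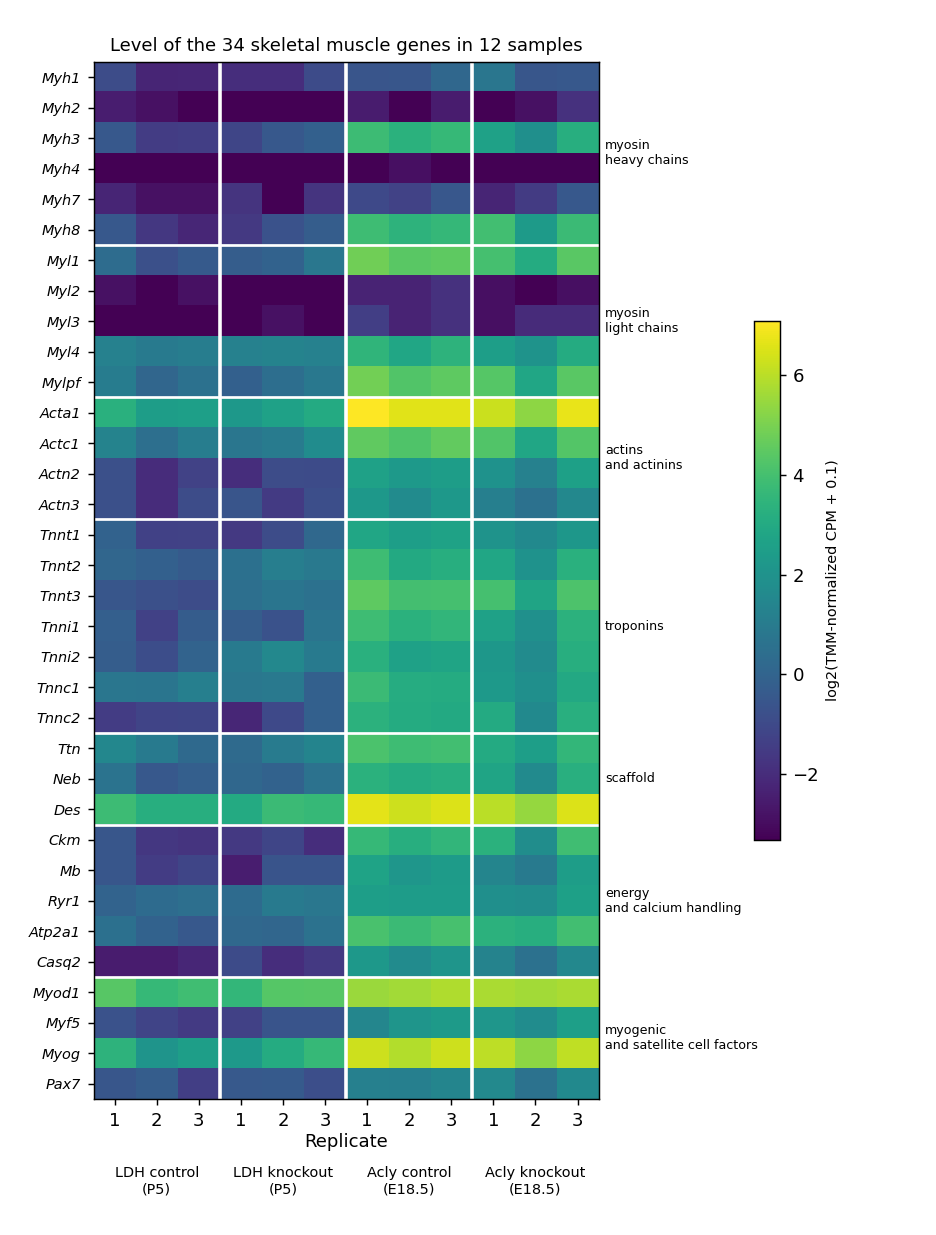
Level of each of the 34 skeletal muscle genes (rows, by role) in each of the 12 samples (columns, by group and replicate number), as log2 of TMM-normalized CPM plus 0.1. The 6 columns at E18.5 are brighter than the 6 at P5 in most rows, Myh2, Myh4, Myl2 and Myl3 are dark throughout, and Acly knockout 2 is the dimmest column at E18.5.

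On the TPM scale the order of the members differed between the ages. In Acly controls skeletal actin Acta1 stood at 156 ± 25.3 TPM, above Myog at 102 ± 12.6 TPM, and no Acta1 value overlapped a Myog value. Mylpf (69.0 ± 11.8 TPM), Des (59.9 ± 5.65), Myl1 (57.6 ± 5.49) and Myod1 (56.8 ± 7.25) came next and overlapped each other. In LDH controls the first place was held by Myod1 at 15.9 ± 4.30 TPM, whose 3 values lay above all values of Acta1 (8.83 ± 3.16 TPM) and of Des (6.34 ± 1.67). Acta1, Myog (8.51 ± 4.32 TPM) and Des overlapped in LDH controls. Among all genes of the table, Acta1 ranked 1053 by mean TPM in Acly controls and 8096 in LDH controls.

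The first comparison set the E18.5 controls against the P5 controls, in which the age of the mice, the mouse line and any library batch coincide and cannot be told apart. Each of the 30 tested skeletal muscle genes was higher in the Acly controls: 30 of 30 passed edgeR's test at an adjusted p under 0.05, against 29.4% of all genes tested that were called higher. Of the 30, 5 (Myh1, Myh7, Tnnc2, Ckm and Casq2) passed the filter on low counts only through the E18.5 samples. Passing in this way favours a difference from the start, so the estimates of these 5 below are descriptions. Of the 25 that also passed the filter within the P5 set, 25 were called. At least 8-fold higher were 20 of these 25 (23 of the 30), against 3.63% of all genes tested. The median log2 fold change was 3.52 over the 25, 3.59 over the 30 and 0.02 over all genes. With total counts and no scaling factors, the median of all genes moved to 0.19 and that of the 30 to 3.76, and all genes called higher and lower moved from 4184 and 3660 to 5492 and 2091.

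The 4 transcription factors of muscle precursors had, of the 7 roles, the smallest ratio of summed levels, 5.47 times as high in Acly as in LDH controls, against 24.6 times for the heavy chains. Myod1 weighs heavily in this, with 16.0 of the 23.6 CPM of the sum in LDH controls. Gene by gene the ratios were 3.17 for Myod1, 4.26 for Pax7, 10.7 for Myog and 10.8 for Myf5. These ratios were not tested against each other. Myod1, which commits cells to the muscle lineage, was at 20.7, 12.6 and 14.6 CPM in LDH controls and at 45.7, 49.2 and 57.1 CPM in Acly controls. Its log2 fold change was 1.67 (SE 0.20, edgeR adjusted p = 1.92e-05), and no values overlapped. Pax7, the satellite cell factor, was at 0.597, 0.748 and 0.276 CPM in LDH controls and at 2.20, 2.15 and 2.56 CPM in Acly controls, a log2 fold change of 2.08 (SE 0.37). Myf5, another early factor, went from 0.522, 0.337 and 0.237 CPM to 2.66, 4.17 and 5.01 CPM (log2 fold change 3.41, SE 0.37). Myog, the factor of differentiation, was at 10.5, 4.12 and 5.57 CPM in LDH controls against 78.0, 59.6 and 79.1 CPM in Acly controls. That is a log2 fold change of 3.42 (SE 0.35, edgeR adjusted p = 5.12e-06). Thus Myog was below Myod1 in each control at P5 and above it in each control at E18.5. The ratio of Myog to Myod1 in TPM was 0.514 ± 0.118 in LDH controls (0.413 to 0.644) and 1.82 ± 0.319 in Acly controls (1.53 to 2.16). This ratio was chosen after the values were seen and was not tested.

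Among the heavy chains, the embryonic and perinatal forms made up nearly the whole signal at E18.5. Myh3 was at 0.634, 0.262 and 0.276 CPM in LDH controls and at 13.9, 10.0 and 12.4 CPM in Acly controls, a log2 fold change of 4.93 (SE 0.42, edgeR adjusted p = 1.32e-06). Myh8 was at 0.634, 0.225 and 0.118 CPM in LDH controls and at 14.3, 10.6 and 12.1 CPM in Acly controls (log2 fold change 5.21, SE 0.52). No values overlapped for either gene. The adult fast chain Myh1 was at 0.442, 0.112 and 0.118 CPM in LDH controls and at 0.568, 0.592 and 0.997 CPM in Acly controls, a log2 fold change of 1.64 (SE 0.62, edgeR adjusted p = 0.0382). The slow chain Myh7 rose from 0.112, 0.0374 and 0.0395 CPM to 0.391, 0.313 and 0.604 CPM (log2 fold change 2.69, SE 0.87, edgeR adjusted p = 0.0176). The calls on Myh1 and Myh7 rest on few counts, 17.9 and 5 in the 3 LDH controls together, and were lost when single libraries were left out: without LDH control 2 (adjusted p 0.140 and 0.0656), LDH control 3 (0.126 and 0.0595) or Acly control 3 (0.133 and 0.0616), and for Myh1 also without Acly control 2 (0.0542). Both were also lost with limma on log2(FPKM + 1), at adjusted p 0.123 and 0.132. Fast chains Myh2 and Myh4 stayed near 0. Myh2 was at 0.0802, 0.0374 and 0 CPM in LDH controls and at 0.0710, 0 and 0.0714 CPM in Acly controls. Myh4 had 0 counts in the LDH controls, which allows up to 0.0361 CPM over the group, and 1 count in the Acly controls.

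As shares of the 6 heavy chains in TPM, Myh3 and Myh8 held 47.4% ± 0.602 and 47.8% ± 1.59 in Acly controls, Myh1 2.87% ± 0.957 and Myh7 1.74% ± 0.517. In LDH controls Myh3 held 42.4% ± 9.93, Myh8 29.6% ± 8.37, Myh1 19.4% ± 4.14 and Myh7 5.67% ± 0.878, the last being 8.70% when computed from FPKM. The share of Myh1 was thus higher at P5, between 15% and 23.2% against at most 3.85% in Acly controls, while its level in CPM was lower there. The P5 shares come from few reads: Myh3 had 31 and Myh8 26 expected counts in the 3 LDH controls together. Heavy chain genes on chromosome 11 are near-identical in sequence, some of their counts were not whole numbers, and how the authors shared out such reads is not given in the sources used here, so the split between isoforms is uncertain.

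Of the 5 light chains, the fast fibre forms had the highest estimates. Myl1, the fast alkali light chain, was at 1.19, 0.486 and 0.671 CPM in LDH controls and at 28.05, 21.4 and 22.7 CPM in Acly controls (log2 fold change 4.93, SE 0.40). Mylpf, the fast regulatory light chain, went from 1.94, 0.973 and 1.38 CPM to 28.9, 19.1 and 22.8 CPM (log2 fold change 4.04, SE 0.41). Myl4, the light chain of embryonic muscle and of the heart's atria, was at 2.31, 1.87 and 2.05 CPM in LDH controls and at 11.1, 6.95 and 10.4 CPM in Acly controls (log2 fold change 2.19, SE 0.27). In TPM, Mylpf was close to Myl4 in LDH controls, at a ratio of 0.955 ± 0.263, and above it in each Acly control, at 3.20 ± 0.390. The slow and ventricular forms Myl2 and Myl3 were at 0.0395 CPM or less in each LDH control and between 0.104 and 0.284 CPM in the Acly controls, and were not tested.

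Actins and actinins rose by a narrow range of log2 fold changes, 3.50 to 4.07. Acta1 was at 9.77, 5.39 and 5.76 CPM in LDH controls and at 136, 96.8 and 99.1 CPM in Acly controls, a log2 fold change of 3.98 (SE 0.35, edgeR adjusted p = 1.57e-06). Actc1, the cardiac actin that developing skeletal muscle also makes, was at 2.39, 1.31 and 2.01 CPM in LDH controls and at 23.1, 18.6 and 23.8 CPM in Acly controls (3.52, SE 0.38). Both actinins, which anchor the filaments at the Z disc, followed. Actn2 went from 0.485, 0.150 and 0.316 CPM to 6.04, 4.69 and 5.43 CPM (4.07, SE 0.44). Actn3, the form of fast fibres, went from 0.485, 0.150 and 0.434 CPM to 4.54, 3.13 and 4.58 CPM (3.50, SE 0.41).

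Troponins covered a wider range, 2.52 to 5.13. Troponin T binds tropomyosin, and its fast form Tnnt3 had the highest estimate of the 7, going from 0.597, 0.486 and 0.434 CPM in LDH controls to 22.3, 15.5 and 16.0 CPM in Acly controls (log2 fold change 5.13, SE 0.37). Its slow form Tnnt1 went from 0.858, 0.299 and 0.316 CPM to 6.99, 5.59 and 6.25 CPM (3.66, SE 0.44). The cardiac form Tnnt2, which is also made in embryonic skeletal muscle, went from 0.970, 0.823 and 0.671 CPM to 14.2, 7.99 and 9.19 CPM (3.66, SE 0.36). Troponin I is the inhibitory subunit, and here the slow form had the higher estimate, a difference that was not tested. Slow Tnni1 went from 0.783, 0.299 and 0.711 CPM to 14.2, 9.90 and 11.3 CPM (4.29, SE 0.45). Fast Tnni2 went from 0.746, 0.449 and 0.908 CPM to 9.51, 6.18 and 6.64 CPM (3.40, SE 0.41). Troponin C binds calcium. Its fast form Tnnc2 was at 0.261, 0.337 and 0.355 CPM in LDH controls and at 10.1, 8.37 and 7.92 CPM in Acly controls (4.77, SE 0.52). Its slow and cardiac form Tnnc1 was at 1.60, 1.57 and 2.17 CPM in LDH controls and at 13.7, 8.61 and 8.41 CPM in Acly controls (2.52, SE 0.33). In TPM the ratio of Tnnc2 to Tnnc1 was 0.184 ± 0.0304 in LDH controls and 0.899 ± 0.128 in Acly controls, with no overlap. No test of that ratio was made.

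The scaffold genes rose to a like degree. Ttn, the giant spring of the sarcomere, went from 2.69, 1.87 and 1.07 CPM to 17.5, 14.2 and 15.1 CPM (log2 fold change 3.05, SE 0.35). Neb, which lies along the thin filament, went from 1.45, 0.636 and 0.789 CPM to 9.98, 8.26 and 9.12 CPM (3.24, SE 0.39). Des, the intermediate filament of all muscle types including smooth muscle, went from 13.8, 9.13 and 9.08 CPM to 101, 77.3 and 92.7 CPM (3.08, SE 0.27). Markers of smooth muscle, a list of 8 genes, summed to 209.7 ± 3.73 CPM in LDH controls and 207 ± 7.83 CPM in Acly controls. Of the 7 tested, 3 were called higher and 1 lower in Acly controls, where 29.4% of all genes tested were called higher.

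Energy and calcium genes had estimates from 2.27 to 5.40. Ckm, the muscle creatine kinase, was at 0.597, 0.225 and 0.197 CPM in LDH controls and at 12.5, 9.20 and 11.3 CPM in Acly controls (log2 fold change 4.99, SE 0.54). Mb, the oxygen store myoglobin, went from 0.597, 0.262 and 0.355 CPM to 6.39, 4.31 and 5.18 CPM (3.69, SE 0.52). The 3 calcium genes had unequal estimates. Ryr1, the calcium release channel of skeletal muscle, went from 0.895, 1.16 and 1.30 CPM to 5.68, 5.35 and 5.22 CPM (2.27, SE 0.27). Atp2a1, the calcium pump of fast fibres, went from 1.34, 0.861 and 0.632 CPM to 17.1, 13.5 and 16.5 CPM (4.04, SE 0.27). Casq2, which stores calcium in heart and slow fibres, went from 0.0746, 0.0748 and 0.118 CPM to 4.58, 3.13 and 4.15 CPM (5.40, SE 0.44). This was the highest log2 fold change of the 30, on 7 expected counts in the 3 LDH controls. Casq2 and Ckm passed the filter only through the E18.5 samples, which favours a difference. Among the 25 that also passed it within the P5 set, the highest was Myh8 at 5.21.

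**Figure D2:**
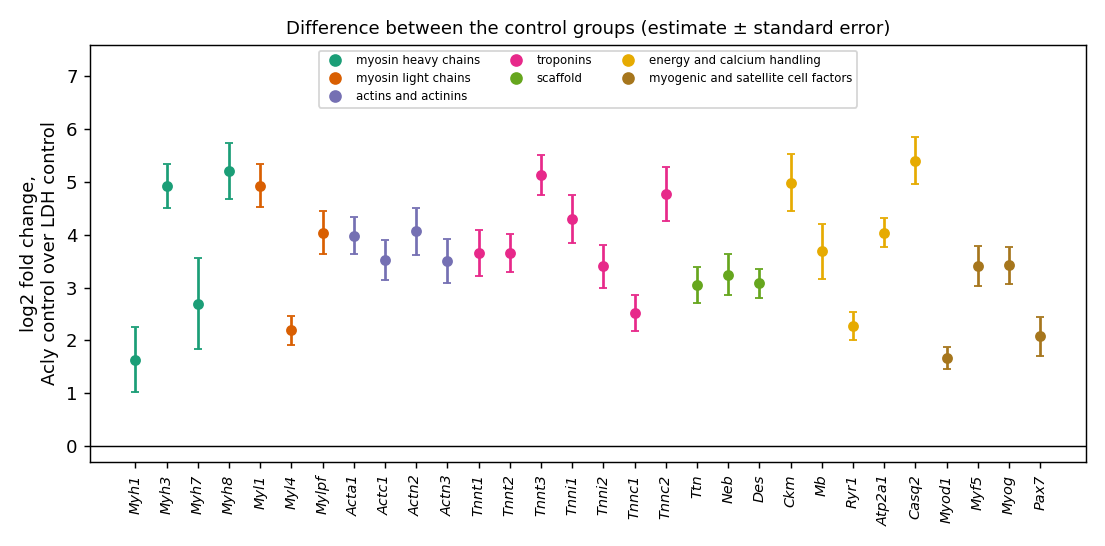
Log2 fold change of each of the 30 tested skeletal muscle genes, Acly control over LDH control, from the edgeR fit of 12 samples (points) with its standard error (bars), coloured by role. Points run from 1.64 for Myh1 to 5.40 for Casq2, and Myod1 at 1.67 lies below the other 3 transcription factors. Myh1, Myh7, Tnnc2, Ckm and Casq2 passed the filter on low counts only through the E18.5 samples, and the other 25 run from 1.67 to 5.21.

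Other genes of skeletal muscle, a list of 54 that shares none of the 34, were higher as well. Of the 50 tested, 46 were called higher and 0 lower by edgeR, against 29.4% of all genes tested that were called higher. However, 23 of the 50 passed the filter on low counts only with the E18.5 samples in the fit. This favours a difference in these 23, though it does not force one. Of the 27 that also passed it within the P5 set, 25 were called higher and 0 lower, with a median log2 fold change of 2.22. The 3 with the lowest p were Dysf, a membrane repair protein (2.23, SE 0.17), Mef2c, a transcription factor of muscle and other cells (2.18, SE 0.18), and Mybpc1, a myosin-binding protein of slow fibres (4.91, SE 0.44). The acetylcholine receptor at nerve contacts changes its subunit from Chrng before to Chrne after birth. In Acly controls Chrng was at 8.83 ± 2.10 CPM and Chrne at 0.117 ± 0.0187 CPM, and in LDH controls Chrng was at 1.06 ± 0.462 CPM and Chrne at 0.0249 ± 0.0432 CPM. Markers of further cell types also differed between the controls: 5 endothelial genes summed to 72.4 ± 7.02 CPM in Acly controls against 10.4 ± 2.03 (5 of 5 tested called higher), and 6 fibroblast and tendon genes to 3107 ± 225 CPM against 661 ± 211 (5 of 6 called higher and 1 lower). Of 8 satellite cell markers, which include the members Pax7 and Myf5, 7 of 7 tested were called higher, with sums of 48.9 ± 0.906 CPM against 9.21 ± 2.08. For the remaining types, 4 of 4 fat cell genes, 3 of 4 red blood cell genes, 2 of 3 osteoblast genes and 2 of 4 nerve genes were called higher and 0 lower, and of 5 macrophage and leukocyte genes 3 were called higher and 1 lower. The counts called higher in each of these lists are to be read against 29.4% of all genes tested, and most lists hold few genes. Of the 10 chondrocyte markers, 7 were called higher in Acly controls and 1, Col2a1, lower (log2 fold change -0.82, SE 0.14), which carries the lower sum of these markers at E18.5. Among all these lists, 1 gene each of the satellite cell, smooth muscle, chondrocyte, red blood cell, endothelial and nerve lists passed the filter only with the E18.5 samples in the fit. The part of these cells in the difference between the muscle genes was not tested.

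The second comparison asked whether loss of Acly, the enzyme that makes acetyl-CoA in the cytoplasm, changed the muscle genes at E18.5. No member passed edgeR's test in either direction: 0 of 30 were called lower, where 0.0787% of all genes tested (11 of 13973) were. DESeq2 called 1, Ttn, with a log2 fold change of -0.85 (adjusted p = 0.0317); over the other settings its adjusted p ran up to 0.396, and from 0.132 to 0.674 with single libraries left out. Estimates were below 0 for 26 of the 30 genes, with a median log2 fold change of -0.47 against 0.00 for all genes, and edgeR adjusted p from 0.222 to 0.894. In 6 of the 30 each knockout value lay below each control value, a share to be read against 12.4% of all genes tested. The edgeR estimates moved with single libraries: the median was -0.19 without Acly knockout 2 and -0.81 without Acly knockout 3.

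Of the 4 transcription factors, 3 had estimates above 0 and Myog had 1 below 0. Myod1 was at 53.5, 49.2 and 54.7 CPM in Acly knockouts, inside the control range of 45.7 to 57.1 CPM (log2 fold change 0.06, SE 0.10). Myf5 was at 4.35, 3.20 and 5.83 CPM (0.19, SE 0.29) and overlapped its controls. Pax7 was at 2.90, 1.42 and 2.97 CPM (0.09, SE 0.29), with 1 knockout below and 2 above all controls. Myog was at 66.1, 40.2 and 68.1 CPM (-0.30, SE 0.19), with 1 knockout below all controls. Summed, these 4 genes stood at 91.0% of the control mean, with Myod1 at 104% and Myog at 80.5%, and the other 6 roles stood between 65.5% (light chains) and 73.6% (energy and calcium genes). The difference between roles was not tested. The ratio of Myog to Myod1 in TPM was 1.39 ± 0.310 in knockouts and 1.82 ± 0.319 in controls, and 2 of the 3 knockout values lay within the control range.

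The 6 genes with no overlap came from 5 roles. Myh3 was at 6.15, 3.53 and 9.08 CPM in knockouts, against a lowest control of 10.0 CPM (log2 fold change -0.94, SE 0.29, edgeR adjusted p = 0.249). Actn3 was at 2.12, 1.38 and 2.79 CPM, below the lowest control of 3.13 CPM (-0.95, SE 0.28, edgeR adjusted p = 0.241). The remaining 4 are a slow troponin T, the slow troponin C, the sarcomere's spring and a calcium store. Tnnt1 was at 3.996, 2.94 and 4.42 CPM against 5.59 CPM in the lowest control (-0.72, SE 0.19, edgeR adjusted p = 0.222). Tnnc1 was at 4.81, 3.49 and 7.67 CPM against 8.41 CPM (-0.93, SE 0.30, edgeR adjusted p = 0.252). Ttn was at 8.20, 5.53 and 11.9 CPM against 14.2 CPM (-0.86, SE 0.24, edgeR adjusted p = 0.229). Casq2 was at 2.40, 1.38 and 2.79 CPM against 3.13 CPM (-0.84, SE 0.28, edgeR adjusted p = 0.259). Knockout 2 was the lowest of the 3 for each of these 6 genes and knockout 3 the highest.

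For the other tested contractile and metabolic genes at least 1 knockout lay within or above the control range. Acta1 was at 76.6, 40.1 and 107 CPM in knockouts (log2 fold change -0.56, SE 0.29, edgeR adjusted p = 0.372). Actc1 was at 19.2, 7.09 and 19.5 CPM, and Actn2 was at 3.89, 2.25 and 5.90 CPM. In all 3 genes knockout 2 was the lowest sample at E18.5. Among the light chains, all 3 tested estimates lay between -0.65 and -0.54. Myl1 was at 16.3, 8.40 and 21.4 CPM in knockouts. Myl4 was at 5.55, 3.93 and 8.45 CPM. Mylpf was at 20.3, 6.98 and 21.3 CPM. Knockout 3 overlapped the controls in each of them. Myl2 was at 0.0354 CPM or less and Myl3 at 0.145 CPM or less, on 2 and 9 expected counts in the 3 knockouts. For Myl2, which was not tested, all knockouts lay below all controls. The 5 troponins not yet named overlapped their controls. Tnnt2 was at 7.04, 3.82 and 9.68 CPM and Tnnt3 at 16.0, 6.62 and 17.9 CPM. Tnni1 was at 6.08, 3.67 and 10.2 CPM and Tnni2 at 4.46, 3.16 and 9.15 CPM. Tnnc2 was at 8.06, 2.94 and 9.30 CPM. In these 5 genes only knockout 2 (Tnnt3 and Tnnc2) or knockouts 1 and 2 (Tnnt2, Tnni1 and Tnni2) lay below the controls, and the estimates of all 7 troponins were below 0. Of the scaffold genes, Neb was at 6.58, 3.09 and 9.44 CPM and Des at 65.1, 42.9 and 92.3 CPM, with knockout 3 inside the control range for both. In the energy and calcium group Ckm was at 9.79, 3.34 and 14.7 CPM, with knockout 3 above all controls, and Mb at 2.58, 1.78 and 5.41 CPM. Ryr1 was at 3.57, 3.31 and 5.90 CPM and Atp2a1 at 10.1, 9.16 and 15.1 CPM.

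**Figure D3:**
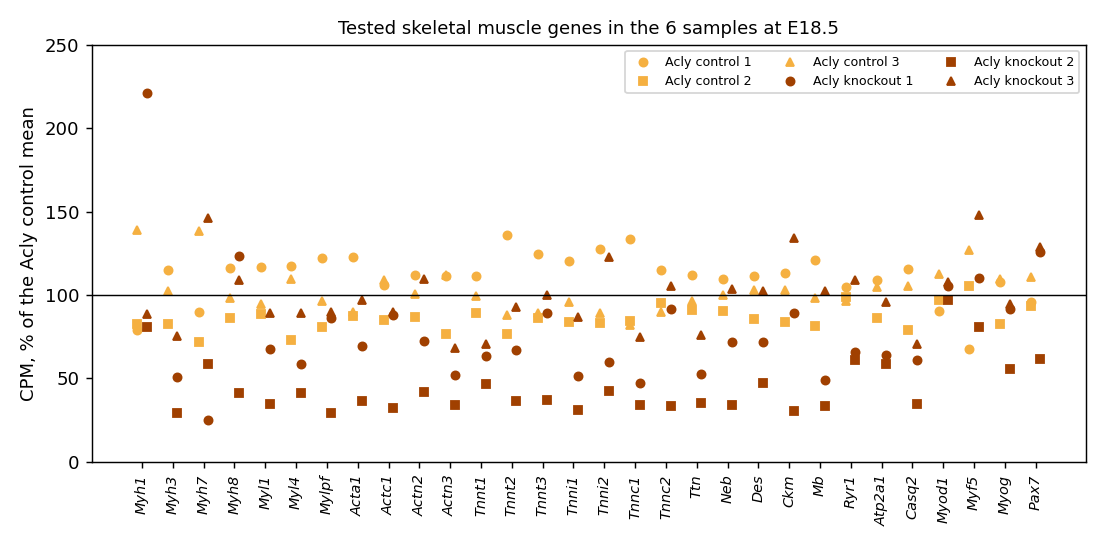
CPM of each of the 30 tested skeletal muscle genes in the 6 samples at E18.5, as a percent of the mean of the Acly controls (line at 100). Squares of Acly knockout 2 lie at 29.2 to 97.2% and are the lowest of the 6 samples for 26 of the 30 genes, all but Myh1, Myh7, Myf5 and Myod1, those of Acly knockout 3 spread around the line, and Myod1 lies near the line in all 6 samples.

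The 3 knockout samples differed among themselves. Over the 26 tested genes other than the 4 transcription factors, the median percent of the control mean was 66.6% in knockout 1, 35.9% in knockout 2 and 94.3% in knockout 3, against 115%, 84.7% and 98.7% in the 3 controls. In knockout 2 all 26 were below the control mean, the highest being Myh1 at 80.9%, while Myod1 in that sample was at 97.2%. Knockout 2 was also low in the sum of fibroblast and tendon markers, at 1006 CPM against 2518 and 2653 CPM in the other knockouts and 2966 to 3367 CPM in the controls. Scx, the tendon factor of that list, went the other way, at 24.0 CPM against 10.5 and 16.2 CPM in the other knockouts and 12.1 to 14.9 CPM in the controls. Its chondrocyte markers summed to 16153 CPM, within the range of the other knockouts and above the controls, of which Col2a1 made up 12004 CPM. Within that list its Hapln1, at 246 CPM, and Col9a1, at 202 CPM, lay below all 5 other E18.5 samples, where they reached at least 310.0 and 207 CPM. Counts of 4 Y-linked genes over the library total, without scaling, summed to 0.0755, 74.3 and 82.8 CPM in Acly knockouts 1, 2 and 3. In Acly controls 1, 2 and 3 the sums were 0.375, 121 and 2.83 CPM. The part of these cell types and of the Y-linked signal in the lower muscle values was not tested. The 54 further skeletal muscle genes showed a like picture: 0 of 50 tested were called by edgeR and 1 by DESeq2. Of their estimates 42 were below 0, and the median log2 fold change was -0.29. The 3 with the lowest p were Chrna1, a subunit of the acetylcholine receptor (-0.67, SE 0.19, edgeR adjusted p = 0.229), Trim63, a ubiquitin ligase of muscle wasting (-1.44, SE 0.46, adjusted p = 0.253), and Cacna1s, the voltage sensor of the calcium channel (-1.04, SE 0.35, adjusted p = 0.259).

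Myh8, the perinatal heavy chain, lay closer to its controls than Myh3 in the Acly knockouts. Myh8 was at 15.2, 5.05 and 13.4 CPM in knockouts (log2 fold change -0.13, SE 0.33), with knockout 1 above all controls. Counting both genes together, Myh3 made up 49.2%, 48.6% and 50.6% in the controls and 28.8%, 41.1% and 40.3% in the knockouts. The exact 95% binomial intervals, which cover counting error only, reached from 44.5% to 54.4% over the 3 controls and from 25.2% to 47.7% over the 3 knockouts. The groups did not overlap, although the interval of knockout 2 (34.8% to 47.7%) reached into those of the controls. This share was examined because its values stood out and so carries no test. In the P5 samples it lay between 50.0% and 70.0%, with wide intervals, from 25.1% to 80.8% in LDH control 2 and from 34.8% to 93.3% in LDH control 3. The slow chain Myh7 and the fast chains Myh1, Myh2 and Myh4 were low. Myh1 was at 1.59, 0.582 and 0.636 CPM and Myh7 at 0.109, 0.254 and 0.636 CPM in Acly knockouts, and Myh2 at 0, 0.0364 and 0.177 CPM. Myh4 had 0 counts in the 3 knockouts, which allows up to 0.0373 CPM over the group. The library with the highest Myh1, knockout 1, also had the cardiac heavy chain Myh6 at 2.37 CPM, against at most 0.0695 CPM in the other 11.

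**Figure D4:**
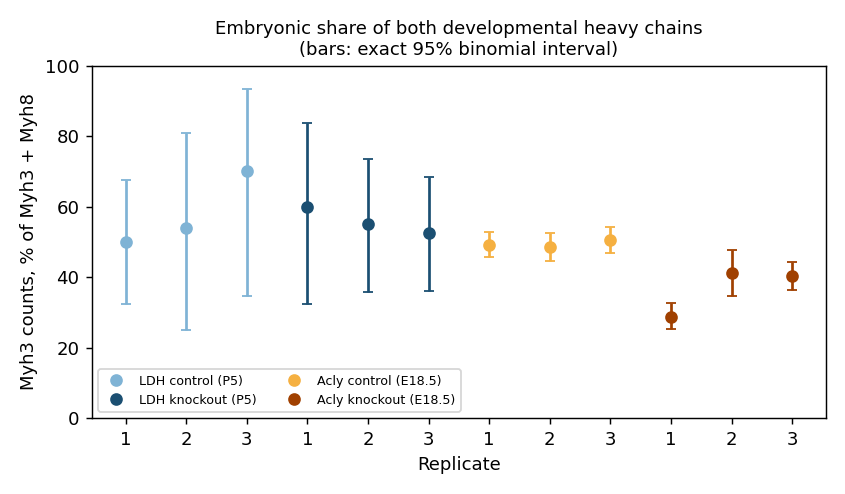
Share of Myh3 in the summed expected counts of Myh3 and Myh8 (vertical axis, percent) in each of the 12 samples (horizontal axis, by group and replicate number), with exact 95% binomial intervals as bars. The 3 Acly controls lie at 48.6 to 50.6% and the 3 Acly knockouts at 28.8 to 41.1%, and the intervals at P5 are wide.

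The third comparison asked the same of Ldha and Ldhb, whose products interconvert pyruvate and lactate, at P5. Tnnt3 and Tnni2, the fast fibre forms of troponin T and troponin I, were higher in LDH knockouts, and the other 23 tested members did not pass. These 2 are a share of 25 tested members to be read against 1.43% of all genes tested that were called higher. Tnnt3 was at 0.597, 0.486 and 0.434 CPM in controls and at 1.31, 1.57 and 1.36 CPM in knockouts, a log2 fold change of 1.47 (SE 0.30, edgeR adjusted p = 0.0351). Tnni2 was at 0.746, 0.449 and 0.908 CPM in controls and at 1.85, 2.79 and 1.78 CPM in knockouts, a log2 fold change of 1.61 (SE 0.34, edgeR adjusted p = 0.0394). Values of knockouts and controls did not overlap for either gene, on 40 and 55 expected counts in the 3 controls. DESeq2 called both (adjusted p = 0.0237 and 0.00379), and over the settings other than leaving out libraries their adjusted p ran up to 0.0790 and 0.0682: edgeR called neither with the replicate number as a block or in the fit of all 12 samples. The calls rested on most single libraries. With knockout 1 left out the edgeR adjusted p of Tnnt3 and Tnni2 was 0.106 and 0.0992, with knockout 2 left out 0.122 and 0.140, with control 1 left out 0.0889 and 0.106, with control 2 left out 0.114 and 0.107, and with control 3 left out 0.0993 and 0.0700. Only leaving out knockout 3 kept both calls (0.0330 and 0.0259). Tnnt2 was at 0.970, 0.823 and 0.671 CPM in controls and at 1.35, 2.08 and 1.75 CPM in knockouts, again without overlap, but did not pass (log2 fold change 1.06, SE 0.29, edgeR adjusted p = 0.0905). Together with it, 3 of the 25 tested members had all knockouts above all controls, where 12.2% of all genes tested did.

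The remaining troponins overlapped between the groups. Slow Tnni1, the inhibitory subunit, was at 0.730, 0.511 and 1.51 CPM in LDH knockouts (log2 fold change 0.62, SE 0.49) and slow Tnnt1 at 0.231, 0.433 and 1.05 CPM (0.21, SE 0.61). Of the calcium-binding subunits, Tnnc1 was at 1.65, 1.77 and 0.814 CPM (-0.33, SE 0.32), and Tnnc2, not tested here, at 0.115, 0.393 and 0.814 CPM. As a group the 7 troponins summed to 8.62 ± 1.23 CPM in LDH knockouts and 5.22 ± 0.833 in controls.

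**Figure D5:**
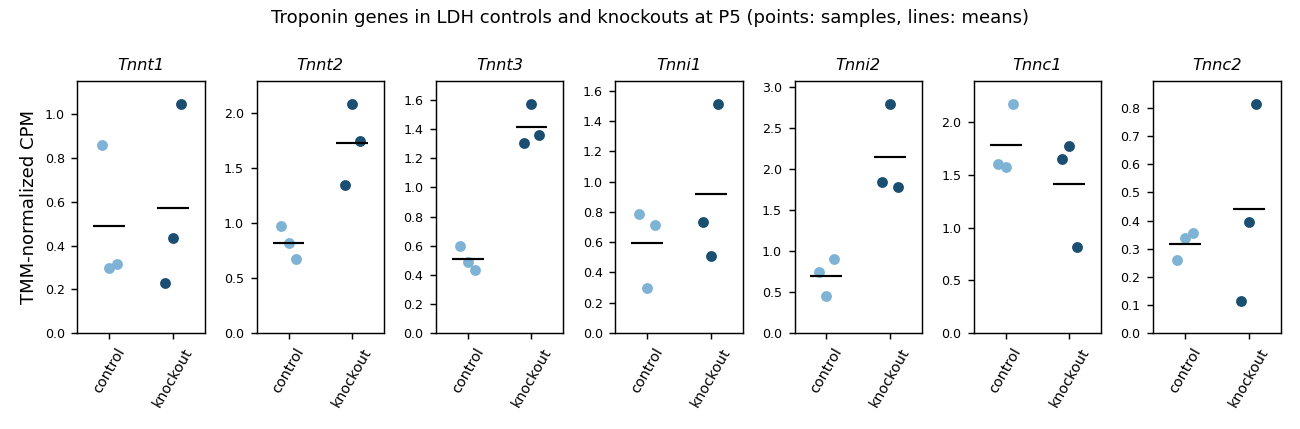
TMM-normalized CPM of the 7 troponin genes in the 3 LDH controls and 3 LDH knockouts at P5 (points: samples; lines: means; each panel has its own axis from 0). Knockouts lie above controls without overlap for Tnnt2, Tnnt3 and Tnni2 and overlap for the other 4 genes.

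Tnni2 and Tnnt3 are near each other on chromosome 7, with Lsp1 the only gene between them in the RefSeq order. Lsp1 did not pass (log2 fold change 0.30, SE 0.14, edgeR adjusted p = 0.272). Of the 9 further neighbours with a test, up to 5 genes away on either side, 3 were higher in LDH knockouts: Ifitm10 (log2 fold change 0.55, SE 0.10, edgeR adjusted p = 0.0236), Igf2 (0.46, SE 0.09, edgeR adjusted p = 0.0351) and Syt8. Syt8, the gene on the other side of Tnni2, was at 9.21 ± 3.21 CPM against 2.32 ± 0.363 (log2 fold change 1.99, SE 0.26, edgeR adjusted p = 0.00731). These neighbours were looked up after the values of both troponins were seen. Use of strand in the counting is not given in the sources used here, so reads of overlapping or antisense genes cannot be told apart. Mean Tnni2 was 0.707 TPM at 0.701 CPM in LDH controls and 2.30 TPM at 2.14 CPM in LDH knockouts, but 13.1 TPM at 7.44 CPM in Acly controls. For Tnnt3 the means were 0.920 TPM at 0.506 CPM in LDH controls and 36.0 TPM at 17.9 CPM in Acly controls. Whether the Tnni2 reads at P5 and E18.5 come from the same transcripts was not tested. Fat cell markers, 4 genes, summed to 26.7 ± 17.2 CPM in LDH knockouts and 1.84 ± 0.505 in LDH controls. The 4 Y-linked genes, over the library total without scaling, summed to at most 0.0367 CPM in the knockouts and to 92.95, 102 and 0.590 CPM in the controls. The part of the fat cell markers and of the Y-linked signal in the troponin values was not tested.

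Outside the troponins the P5 groups overlapped for each tested member. Over the 25, 20 estimates were above 0 and 5 below, with a median log2 fold change of 0.23 against 0.01 for all genes. This median was 0.03 without LDH knockout 3 and 0.54 without LDH control 1. Myod1 was at 11.8, 20.3 and 20.6 CPM in LDH knockouts (log2 fold change 0.14, SE 0.23), Myog at 4.81, 8.30 and 12.3 CPM (0.33, SE 0.38). Myf5 was at 0.308, 0.551 and 0.543 CPM (0.34, SE 0.45), Pax7 at 0.654, 0.669 and 0.465 CPM (0.13, SE 0.42). None of these 4 factors passed the test. Acta1 was at 4.58, 6.14 and 8.22 CPM (-0.15, SE 0.27) and Actc1 at 1.58, 1.89 and 3.26 CPM. Both actinins also overlapped their controls: Actn2 was at 0.154, 0.433 and 0.427 CPM (0.09, SE 0.57), and Actn3 at 0.577, 0.236 and 0.465 CPM (0.26, SE 0.53). Both developmental heavy chains were also below 1 CPM in each P5 sample. Myh3 was at 0.346, 0.629 and 0.814 CPM (0.60, SE 0.49), and Myh8 at 0.231, 0.511 and 0.737 CPM (0.58, SE 0.63). The slow chain Myh7 and the fast chains were near the floor of detection. Myh1 was at 0.154, 0.157 and 0.427 CPM and Myh7 at 0.192, 0 and 0.194 CPM, while Myh2 and Myh4 had 0 counts, which allows up to 0.0365 CPM over the 3 knockouts. Of the light chains, Myl4 varied little from sample to sample. It was at 2.31, 2.40 and 2.29 CPM, with Myl1 at 0.730, 0.865 and 1.67 CPM and Mylpf at 0.807, 1.26 and 1.71 CPM. Myl2 had 0 counts and Myl3 1 count in the 3 knockouts. The scaffold genes lay near their control levels, with log2 fold changes from -0.04 to 0.18. Ttn was at 1.11, 1.89 and 2.48 CPM, Neb at 0.9996, 0.865 and 1.40 CPM and Des at 8.23, 13.5 and 12.3 CPM. Of the energy and calcium genes, Ckm was at 0.231, 0.354 and 0.155 CPM and Mb at 0.0769, 0.551 and 0.543 CPM. Ryr1 was at 1.15, 1.85 and 1.63 CPM (0.46, SE 0.29) and Atp2a1 at 1.04, 0.983 and 1.40 CPM. Casq2 was above its controls in each knockout, at 0.423, 0.157 and 0.233 CPM, but on 21 expected counts in knockouts and 7 in controls, and was not tested in this fit.

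The last comparison tested whether the effect of the LDH deletion differed from that of the Acly deletion, where the gene deleted and the age of the mice cannot be told apart. No member passed: 0 of 30 were called by edgeR, and 0.161% of all genes tested were. Of the 30, 5 (Myh1, Myh7, Tnnc2, Ckm and Casq2) passed the filter on low counts only through the E18.5 samples. DESeq2 called 2, Tnnt3 (difference of log2 fold changes 1.86, adjusted p = 0.0182) and Tnni2 (1.996, adjusted p = 0.0269), and over the other settings their adjusted p ran up to 0.258 and 0.279. With edgeR these differences were 1.88 (SE 0.50, adjusted p = 0.178) and 2.02 (SE 0.54, adjusted p = 0.183), and with single libraries left out the adjusted p of Tnnt3 ran from 0.0698 to 0.381 and that of Tnni2 from 0.0422 to 0.405, passing only without Acly knockout 3. Casq2 was above its controls in the 3 LDH knockouts and below them in the 3 Acly knockouts. Its difference was 2.41 (SE 0.65, edgeR adjusted p = 0.183, and 0.0976 to 0.271 over the other settings). Casq2 had only 7 expected counts in the LDH controls and 21 in the LDH knockouts, so this estimate is a description.

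Within groups, the muscle genes varied together from sample to sample. After the mean of each group was taken out, the log2 level of a member followed the summed level of the 34 genes with a median Pearson r of 0.811 over 12 samples (28 members with a mean of at least 1 CPM), from 0.186 for Casq2 to 0.988 for Myh3. Over 12711 genes of that level the median r was 0.0479. The sum contains the members themselves, and the points share library and depth, so these values are descriptions. Acta1 reached 0.977, Des 0.967 and Mylpf 0.957, whereas Pax7 reached 0.366 and Tnnc1 0.248. Among genes outside the 34, those with the highest r were Mybpc1 (0.964), Mymk (0.939), Thbs4 (0.917), Pde7b (0.912), Thy1 (0.908), Pdlim3 (0.905), Aplp1 (0.895), Cacna1s (0.893), Fos (0.892) and Daxx (0.888). Mybpc1, Mymk, a fusion protein of myoblasts, and Cacna1s were among the 54 further skeletal muscle genes.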

How the data were processed

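RNA of rib chondrocytes was measured in 12 samples in 4 groups of 3, grouped by the titles and genotypes in the labels. The authors deposited 1 table with expected counts, FPKM and TPM per gene and sample. The expected counts are not all whole numbers, and per the submitters' processing notes reads were aligned with HISAT2 2.0.4 to mm9. FPKM and TPM in that table are the authors' values per transcript length and depth. The counting program, the annotation and the use of strand are not given in the sources used here. The 12 columns of group averages were not used.

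Expected counts were rounded and tested with edgeR 4.0.16 (R 4.3.3): TMM scaling, the default filter on low counts, quasi-likelihood F tests and Benjamini-Hochberg adjustment over all genes tested, with an adjusted p under 0.05 as a call. Each knockout was tested against its own controls in a fit of 6 samples; the controls were compared, and the effects of the 2 deletions were compared, in a fit of all 12. The standard error is the size of the log2 fold change divided by the root of F. Values in CPM use TMM factors over the 12 samples, and 3 counts per library was taken as the limit of detection, which like the binomial intervals covers counting error only. With 3 against 3 samples an exact permutation test of a single value could not go below 0.1, so none is given.

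The alternatives were DESeq2 1.42.0, other scaling, no filter, limma 3.58.1 on log2(FPKM + 0.1) and log2(FPKM + 1), the replicate number as a block, the other set of samples in the fit, and each library left out in turn. The model scripts were tested on simulated data. Promoter motifs were counted on both strands. All members may be named, and of the further 54 muscle genes the 3 with the lowest p in 2 of the comparisons; likeness names the 10 genes with the highest Pearson r. The members, the gene lists and the tests were chosen with earlier results of these data known.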

Additional observations from a re-analysis of the deposited data

How the results depend on the processing

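Over the 14 alternatives for each comparison within or between controls, and 19 for the difference between the deletions, the direction held for 30 of 30 members between the controls, 23 of 30 in the Acly set, 12 of 25 in the LDH set and 24 of 30 for the difference. The number of members called in the LDH set, 2, fell to 0 with the replicate number as a block and to 0 with all 12 samples in the fit, and ran from 0 to 2 with single libraries left out; limma on log2(FPKM + 1) called 3. Of the fits with 1 library left out, only that without LDH knockout 3 kept the 2 calls. In the Acly set the count of 0 became 1 with DESeq2 and was 0 without any 1 library. For the difference between the deletions the count of 0 became 2 with DESeq2 and ran from 0 to 1 with libraries left out. Between the controls the count ran from 28 to 31, and from 28 to 30 with libraries left out. The cause was not tested.

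Estimates near 0 changed sign when single libraries were left out. In the LDH set Acta1 ran from -0.38 to 0.17, Myog from -0.038 (without knockout 3) to 0.80 and Myod1 from -0.013 (without control 2) to 0.36. In the Acly set Myh8 ran from -0.40 to 0.22 (without knockout 2), Myod1 from -0.0046 (without control 1) to 0.16, Myf5 from -0.046 to 0.40 and Pax7 from -0.078 to 0.35.

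Among all genes, calls numbered 332 in the LDH set (258 to 901 with other settings, 95 to 1068 with libraries left out), 19 in the Acly set (8 to 247, and 0 to 132), 7844 between the controls (7398 to 8194, and 6705 to 7127) and 23 for the difference (5 to 213, and 5 to 143). The percentages of all genes called in the text move with these counts. In an arm reduced to 2 libraries the spread was pooled over the groups.

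Samples with the same replicate number did not deviate together: Pearson r was 0.0477, -0.129 and -0.0184 over genes for the 3 LDH pairs and 0.0205, -0.188 and -0.195 for the 3 Acly pairs, so the numbers were not read as pairs, and not every sample correlated best with its own number. With the replicate block 362 genes were called in the LDH set, 8 in the Acly set, 7398 between the controls and 5 for the difference, and the members called were 0, 0, 30 and 0. Depth limits the P5 values, where Casq2, Myh7 and the fast heavy chains rest on few counts. The share of Myh7 in LDH controls was 8.70% from FPKM and 5.67% from TPM.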
